A study of Mus musculus with 7 samples.

Results

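The nuclear genes of the mitochondrial respiratory chain and ATP synthase were examined in muscle stem cells (MuSCs) from mice homozygous for the *Jag2sm* allele and from WT mice. Members were the protein-coding genes of the mouse annotation whose symbol begins with Nduf, Uqcr or Atp5, together with *Sdha*, *Sdhb*, *Sdhc*, *Sdhd*, *Cyc1*, *Cycs*, *Cox5a*, *Cox5b*, *Cox6b1*, *Cox6c*, *Cox7b* and *Cox7c*. This gave 87 members among the 56748 genes of the count files, 21630 of which are protein-coding. Sorted by role, they were 7 core subunits, 30 accessory subunits and 8 assembly factors of complex I, 4 subunits of complex II, 9 of complex III, 8 of complex IV, cytochrome c (*Cycs*), and 19 genes of ATP synthase. *Ndufb11b*, a retrogene of a complex I subunit, was not placed. *Ndufa4* and *Ndufa4l2* carry complex I names and were counted with complex IV, to which their products belong.

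RNA came from 3 WT and 4 homozygous *Jag2sm* samples of MuSCs taken from the hind limbs of adult mice. The *Jag2sm* allele is a natural missense variant of the NOTCH ligand gene *Jag2*, present in all cells of the animal and described by the study as hypomorphic, while the genotype in the sample labels is written as *Jag2*-/-. Cells were sorted with magnetic beads as positive for Integrin α7 and negative for CD31, CD45 and Sca1, and both genotypes were then kept on collagen in growth medium with serum and bFGF. No treatment was given, the age is stated only as adult, and the labels do not say whether a sample is 1 animal or a pool. Each sample gave 1 nanopore direct cDNA library with 187834 to 1937581 reads counted on genes, the lowest in WT replicate 1. The labels give each library a batch number equal to its replicate number, so WT and *Jag2sm* replicates 1, 2 and 3 share a batch and *Jag2sm* replicate 4 has none in common with WT. What a batch stands for is not stated. Nothing says that the samples came from separate cultures, so the p-values below measure the spread between these samples. Positions are those of the GRCm39 build with the GENCODE M39 annotation. Values are normalized CPM (counts on the gene scaled to a common library total), in the order of replicates 1, 2 and 3 for WT and 1, 2, 3 and 4 for *Jag2sm*.

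The respiratory chain passes electrons from NADH through complex I, or from succinate through complex II, to ubiquinone, then to complex III, cytochrome c and complex IV, which reduces oxygen. Complexes I, III and IV pump protons across the inner mitochondrial membrane, and ATP synthase uses the return flow to make ATP. Most subunits are encoded in the nucleus and the others in mitochondrial DNA. Skeletal muscle has a high content of these complexes, and mitochondrial content is known to increase as myoblasts differentiate into myotubes.

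Most members had lower normalized counts in *Jag2sm* than in WT MuSCs, by small amounts, and none passed the test. After the filter on low counts 80 of the 87 members were tested together with all other genes, 9489 in total, with the quasi-likelihood F-test of edgeR and adjustment by Benjamini-Hochberg. Of all genes tested 6.26% were called at an adjusted p under 0.05, 4.84% lower and 1.42% higher in *Jag2sm*, and of the members 0 were called. The log2 fold change of *Jag2sm* over WT was negative in 68 of the 80 members (85.0%) and in 46.0% of all genes tested. Its median was -0.26 over the members, with a range of -0.93 to 0.59, and 0.049 over all genes tested. An unadjusted p under 0.05 was seen in 12 members with lower values (15%, against 11.0% of all genes tested) and in 0 with higher values (8.76% of all genes tested). DESeq2 called 1 member lower (*Atp5f1d*), where it called 4.69% of the genes with an adjusted p lower, and limma-voom called 1 of 80 (*Ndufaf3*), against 5.37% of all genes. Scaling by library size alone moved the median of all genes to 0.21 and that of the members to -0.10, with 54 members negative, which is a shift of both medians in the same direction.

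**Figure D1:**
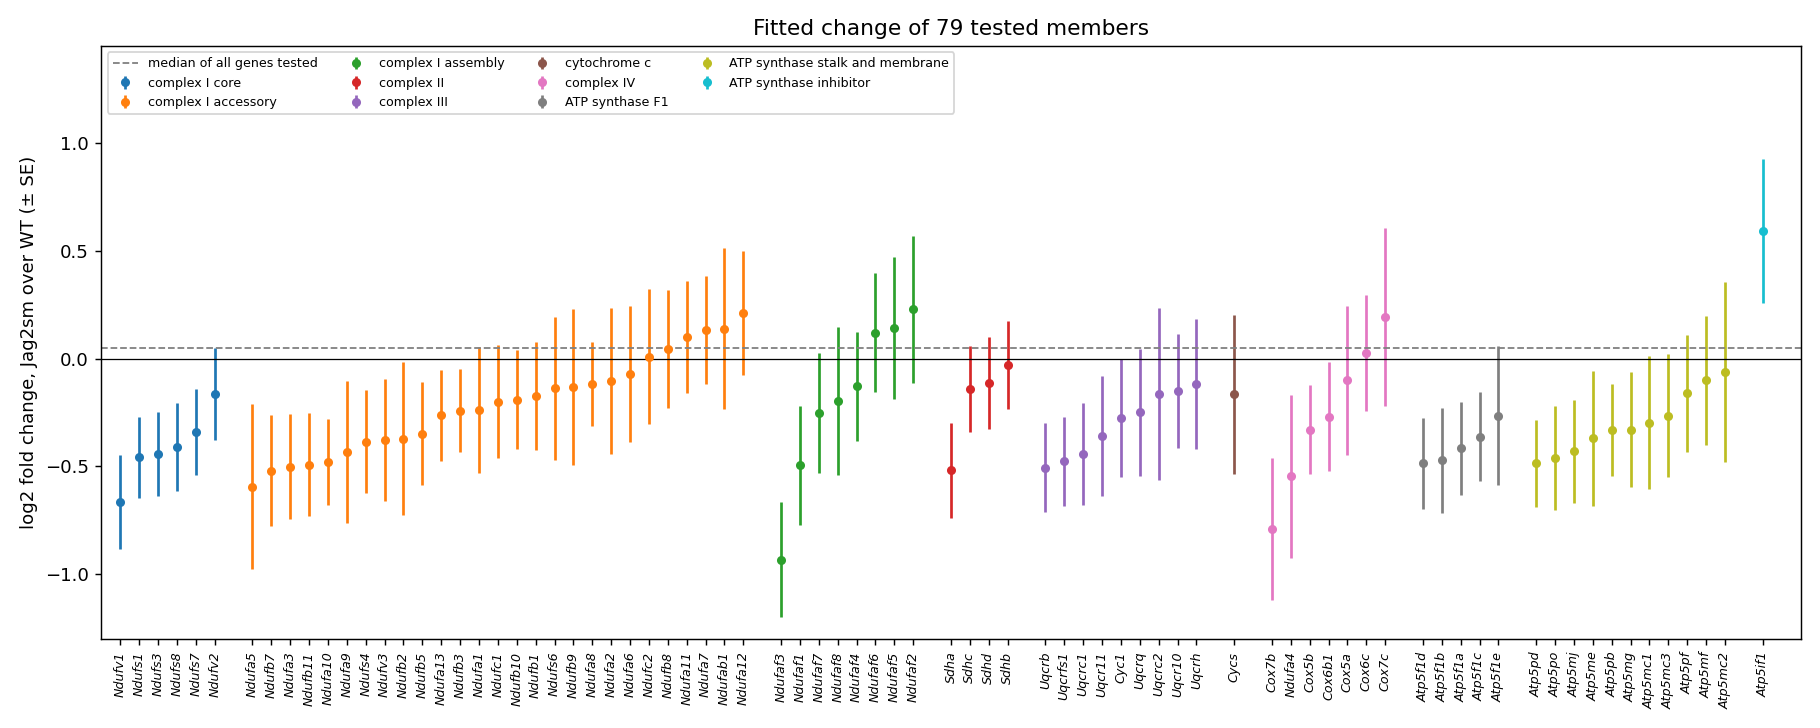
Fitted log2 fold change of *Jag2sm* over WT MuSCs (y axis) for 79 of the 80 tested members (x axis, sorted within each role). Points are estimates, bars are standard errors and the dashed line is the median of all 9489 genes tested, 0.049. Of the points, 67 lie below 0, and they range from -0.93 for *Ndufaf3* to 0.59 for *Atp5if1*.

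The CPM of all 87 members added together was 21449, 30422 and 32216 CPM in WT and 20946, 21982, 22302 and 25739.8 CPM in *Jag2sm* libraries. All 4 *Jag2sm* sums lay below those of WT replicates 2 and 3, and WT replicate 1 lay among the *Jag2sm* values. Every *Jag2sm* library was below every WT library in 19 members (23.8%), where 12.2% of all genes tested showed this, and above every WT library in 0 (10.3% of all genes tested). WT replicate 1 stood apart from the other WT libraries in many members. It was the lowest of the 7 libraries in 35 of the 80 members and the highest in 16, while WT replicate 3 was the highest in 40. Against WT replicates 2 and 3 alone, every *Jag2sm* library was lower in 54 members (67.5%), compared with 17.2% of all genes tested. In WT replicate 1 the tested members had 3716 counts in all and 22 of them had fewer than 10, while the other libraries held 14797 to 47024. In cultures of mixed cells, fewer cells of a type and less RNA per cell cannot be told apart in any of these values.

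**Figure D2:**
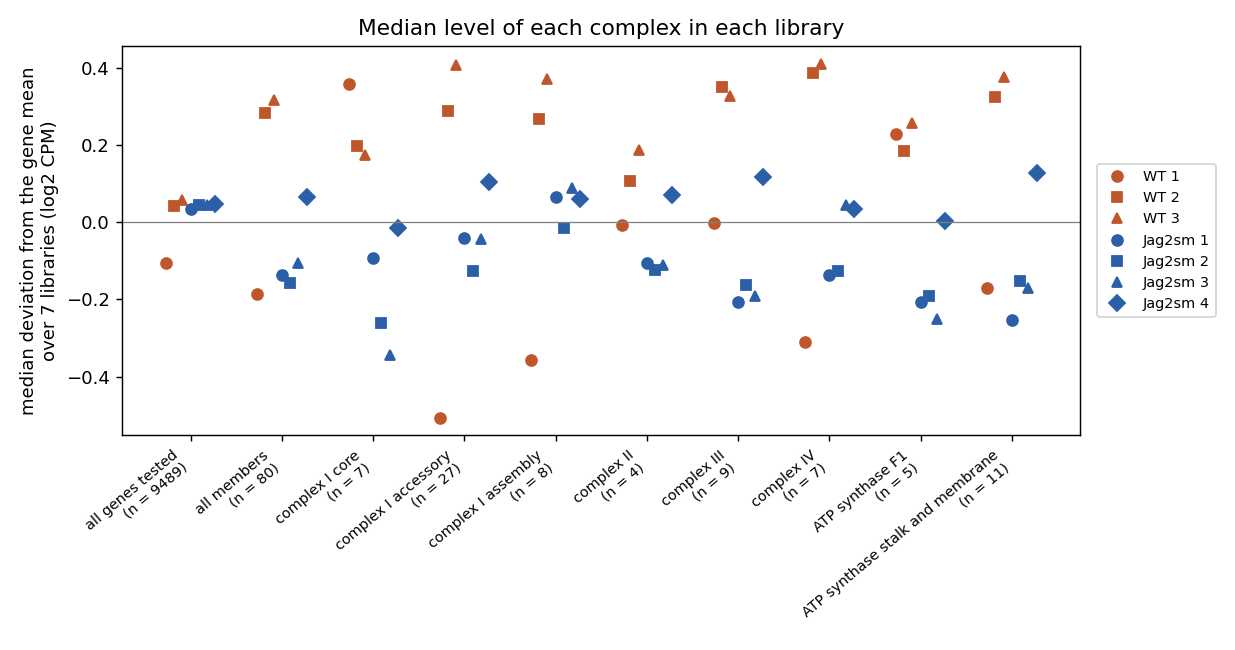
Median deviation of each library (y axis, log2 CPM relative to the gene's mean over 7 libraries) for all genes tested, all tested members and the members of each complex (x axis, number of tested genes in brackets). Orange marks are the 3 WT and blue marks the 4 *Jag2sm* libraries, with the replicate given by the shape. For all members the *Jag2sm* libraries lie between -0.16 and 0.066, WT replicates 2 and 3 at 0.28 and 0.32, and WT replicate 1 at -0.19.

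The nuclear core subunits of complex I carry the flavin and the iron-sulfur clusters that take electrons from NADH to ubiquinone. All 7 had a negative log2 fold change, with a median of -0.44 and a range of -0.66 to -0.16, and 0 were called. In 6 of the 7 (85.7%), every *Jag2sm* library was below every WT library, against 12.2% of all genes tested.

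*Ndufv1*, which binds NADH and the flavin (ENSMUSG00000037916.15, chromosome 19, 4057384 to 4062814, minus strand), had 277, 190.0 and 200.1 CPM in WT and 143, 112, 157 and 138 CPM in *Jag2sm* libraries. For *Ndufv1* the log2 fold change was -0.66 ± 0.22 (SE), adjusted p = 0.108 (edgeR, as for all adjusted p-values here unless another tool is named), and no *Jag2sm* value reached the lowest WT value. An exact two-sided permutation test over the 7 libraries gave p = 0.0286, the smallest it can give. It is on no exon of another gene and has no near-identical copy. *Ndufs1*, the largest subunit of the complex (ENSMUSG00000025968.17, chromosome 1, 63182058 to 63216236, minus strand), had 167, 164 and 140.4 CPM in WT and 100.4, 117, 115 and 121 CPM in *Jag2sm* libraries. Its log2 fold change was -0.46 ± 0.19 (SE), adjusted p = 0.201, and the highest *Jag2sm* value lay below the lowest WT value.

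*Ndufs3* (ENSMUSG00000005510.10, chromosome 2, 90724969 to 90735284, minus strand) had 138, 123 and 119 CPM in WT and 99.0, 82.9, 81.8 and 108 CPM in *Jag2sm* libraries. Here the log2 fold change was -0.44 ± 0.19 (SE), adjusted p = 0.241. *Ndufs8*, which holds a pair of iron-sulfur clusters (ENSMUSG00000059734.8, chromosome 19, 3958862 to 3962948, minus strand), had 173, 218 and 176 CPM in WT and 151, 117, 155 and 151 CPM in *Jag2sm* libraries. *Ndufs7*, which holds the last cluster before ubiquinone (ENSMUSG00000020153.15, chromosome 10, 80084941 to 80095049, plus strand), had 213, 231 and 252 CPM in WT and 192, 175, 159 and 213 CPM in *Jag2sm* libraries. Both were without overlap between genotypes, though WT replicate 1 and *Jag2sm* replicate 4 differed by less than 1 CPM in *Ndufs7*, and the log2 fold changes were -0.41 ± 0.20 (SE), adjusted p = 0.297 and -0.34 ± 0.20 (SE), adjusted p = 0.377. *Ndufv2*, the partner of *Ndufv1*, was the exception (ENSMUSG00000024099.16, chromosome 17, 66385633 to 66408634, minus strand). *Ndufv2* had 179, 230.1 and 249 CPM in WT and 214, 192, 162 and 229 CPM in *Jag2sm* libraries, and with WT replicate 1 between the *Jag2sm* values its log2 fold change was -0.16 ± 0.21 (SE), adjusted p = 0.731.

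**Figure D3:**
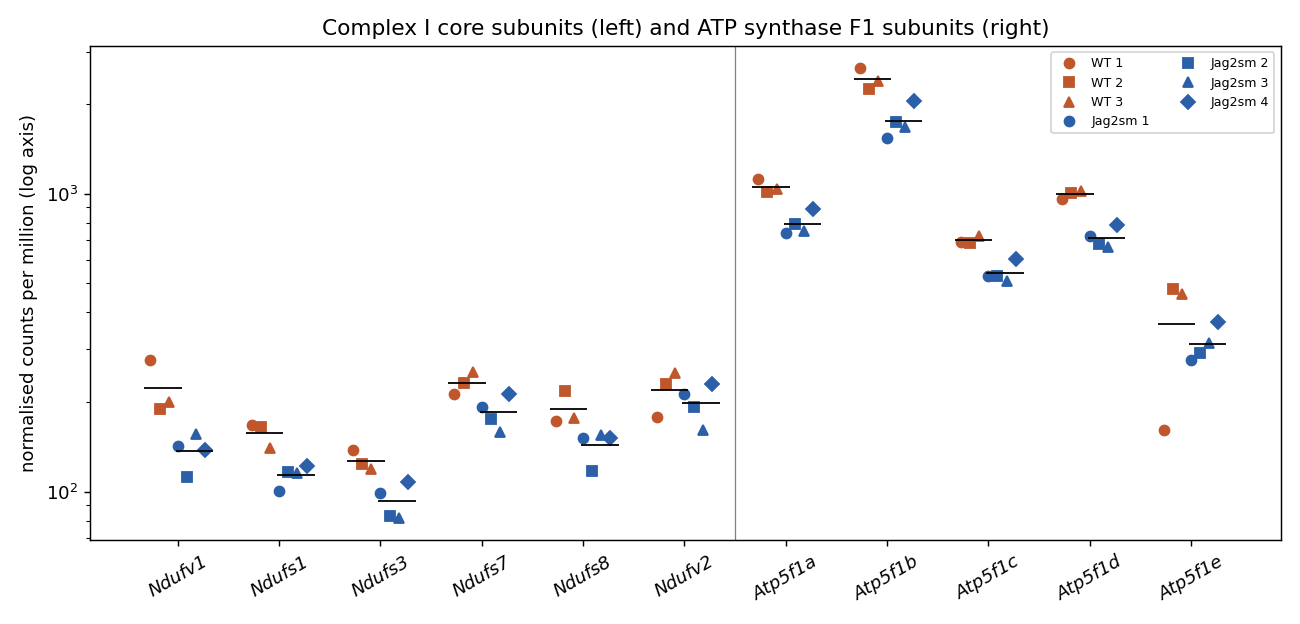
Normalized CPM (y axis, log scale) of 6 complex I core subunits and the 5 ATP synthase F1 subunits (x axis) in each library. Orange marks are WT, blue marks *Jag2sm*, the shape gives the replicate, and the black lines are group means (n = 3 and 4). WT and *Jag2sm* marks do not overlap in 9 of the 11 genes, and overlap in *Ndufv2* and *Atp5f1e*. Of all genes tested, 12.2% had every *Jag2sm* library below every WT library.

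The accessory subunits surround this core and are needed for its assembly and stability. Of the 30, 27 were tested, 21 had a negative log2 fold change and 0 were called. Their median log2 fold change was -0.20, with a range of -0.59 to 0.21. In 19 of them (70.4%) every *Jag2sm* library was below WT replicates 2 and 3, against 17.2% of all genes tested. In 1 (3.70%) every *Jag2sm* library was below every WT library, against 12.2% of all genes tested. That 1 was *Ndufa10*, a subunit of the membrane arm (ENSMUSG00000026260.13, chromosome 1, 92361375 to 92401613, minus strand), with 323, 427 and 348 CPM in WT and 253, 263, 255 and 285 CPM in *Jag2sm* libraries. *Ndufa10* had a log2 fold change of -0.48 ± 0.20 (SE), adjusted p = 0.209.

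*Ndufa5*, a subunit of the arm that faces the matrix, had the most negative value (ENSMUSG00000023089.13, chromosome 6, 24518659 to 24528012, minus strand). *Ndufa5* had 127, 502 and 539 CPM in WT and 212, 261, 260.2 and 330.2 CPM in *Jag2sm* libraries, so that WT replicates 2 and 3 lay above all *Jag2sm* libraries and WT replicate 1 below them. Its log2 fold change was -0.59 ± 0.38 (SE), adjusted p = 0.433, and -0.98 with adjusted p = 0.0188 when WT replicate 1 was left out. *Ndufa3* and *Ndufb7*, both of the membrane arm and outside the rule for named genes, are given because they were called once WT replicate 1 was left out or the trend on transcript length was removed. *Ndufa3* had 179, 336 and 344 CPM in WT and 211, 180.4, 217 and 222 CPM in *Jag2sm* libraries, and a log2 fold change of -0.50 ± 0.24 (SE), adjusted p = 0.293. Without WT replicate 1 it was -0.72 (adjusted p = 0.0263). *Ndufb7* had 133, 279.9 and 288 CPM in WT and 185, 159, 174 and 157 CPM in *Jag2sm* libraries, and a log2 fold change of -0.52 ± 0.26 (SE), adjusted p = 0.297. Without WT replicate 1 it was -0.76 (adjusted p = 0.0212).

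*Ndufa12*, a subunit attached late in assembly (ENSMUSG00000020022.18, chromosome 10, 94034582 to 94057450, plus strand), had the most positive value of the accessory subunits. *Ndufa12* had 98.0, 231 and 243 CPM in WT and 201, 241, 202 and 278 CPM in *Jag2sm* libraries, and a log2 fold change of 0.21 ± 0.29 (SE), adjusted p = 0.745. WT replicate 1 was the lowest library, and without it the value of *Ndufa12* was -0.051. Too few counts for a test were found for *Ndufb4* (46 over the 7 libraries), *Ndufb6* (35) and *Ndufs5* (30). *Ndufb11b* had 0 counts, which allows up to 16.0 CPM in WT replicate 1 and 1.55 to 4.47 CPM in the other libraries. These limits are for counting error only and use raw library totals, without the normalization of the other CPM.

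The complex I assembly factors, which are absent from the finished enzyme, spread more widely than the subunits. Of the 8, 5 had a negative and 3 a positive log2 fold change, with a median of -0.16, and 0 were called. In 2 (25.0%), *Ndufaf3* and *Ndufaf1*, every *Jag2sm* library was below every WT library, against 12.2% of all genes tested. The SD of the log2 fold change between genes was 0.385 here, 0.152 among the core subunits and 0.225 among the accessory subunits. Each assembly factor had 148 to 932 counts over the 7 libraries, and the part of counting error in their spread was not tested. *Ndufaf3*, a factor for the ubiquinone module (ENSMUSG00000070283.5, chromosome 9, 108442729 to 108444642, minus strand), had the most negative value of all 80 members. *Ndufaf3* had 23.1, 41.4 and 31.3 CPM in WT and 21.2, 14.5, 19.7 and 17.1 CPM in *Jag2sm* libraries, with 198 counts in all. The highest *Jag2sm* value lay below the lowest WT value, and the log2 fold change was -0.93 ± 0.27 (SE), adjusted p = 0.0675. limma-voom called *Ndufaf3* (adjusted p = 0.0439), as did edgeR without WT replicate 1 (adjusted p = 0.0454). Over all the settings tried its adjusted p ranged from 0.0411 to 0.495. Exons of *Ndufaf3* overlap those of *Impdh2* on the opposite strand, and the strand setting of the counting is not given in the sources used here.

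*Ndufaf2*, which resembles *Ndufa12* and stands in its place during assembly (ENSMUSG00000068184.8, chromosome 13, 108139249 to 108295189, minus strand), had 5.76, 49.1 and 58.8 CPM in WT and 55.1, 52.5, 54.2 and 52.2 CPM in *Jag2sm* libraries. Its log2 fold change was 0.23 ± 0.34 (SE), adjusted p = 0.768, and -0.018 without WT replicate 1, where 1 read stood behind the value.

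Complex II, the succinate dehydrogenase that links the citric acid cycle to the chain, had 4 members with negative values, a median log2 fold change of -0.13 and 0 calls. *Sdha*, the flavoprotein with the catalytic site (ENSMUSG00000021577.15, chromosome 13, 74469359 to 74498436, minus strand), had 294, 200.4 and 208 CPM in WT and 139, 147, 162 and 191 CPM in *Jag2sm* libraries. All *Jag2sm* values were below all WT values, and the log2 fold change was -0.52 ± 0.22 (SE), adjusted p = 0.219. *Sdhb*, the iron-sulfur subunit (ENSMUSG00000009863.15, chromosome 4, 140688502 to 140709380, plus strand), had 317, 271 and 358 CPM in WT and 322, 288, 335 and 291 CPM in *Jag2sm* libraries, and the genotypes overlapped. The log2 fold change of *Sdhb* was -0.028 ± 0.20 (SE), adjusted p = 0.973. *Sdhc* and *Sdhd* anchor the enzyme in the membrane. *Sdhc* (ENSMUSG00000058076.13, chromosome 1, 170954732 to 170978223, minus strand) had 346, 384 and 401 CPM in WT and 311, 332, 347 and 383 CPM in *Jag2sm* libraries. *Sdhd* (ENSMUSG00000000171.6, chromosome 9, 50507642 to 50515195, minus strand) had 277, 361 and 388 CPM in WT and 322, 296, 287 and 372 CPM in *Jag2sm* libraries. Their log2 fold changes were -0.14 ± 0.20 (SE), adjusted p = 0.758 and -0.11 ± 0.21 (SE), adjusted p = 0.831. The difference between *Sdha* and the other subunits was not tested. *Sdhb*, *Sdhc* and *Sdhd* took a positive sign when libraries were scaled by library size alone or when 10 counts were required in every library.

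All 9 members of complex III, which moves electrons from ubiquinol to cytochrome c, had a negative log2 fold change, with a median of -0.27 and a range of -0.51 to -0.12. None was called, and in 2 (22.2%) every *Jag2sm* library was below every WT library, against 12.2% of all genes tested. *Uqcrb*, a small subunit near the ubiquinone site (ENSMUSG00000021520.5, chromosome 13, 67048655 to 67053443, minus strand), had 69.2, 87.9 and 94.8 CPM in WT and 58.0, 49.1, 68.0 and 68.5 CPM in *Jag2sm* libraries, and a log2 fold change of -0.51 ± 0.21 (SE), adjusted p = 0.199. *Uqcrfs1*, the Rieske iron-sulfur protein and outside the rule for named genes, was the other (ENSMUSG00000038462.4, chromosome 13, 30723448 to 30729345, minus strand). It had 340.1, 414 and 399 CPM in WT and 294, 255, 243 and 321 CPM in *Jag2sm* libraries, and a log2 fold change of -0.48 ± 0.21 (SE), adjusted p = 0.230. *Uqcrh*, the acidic subunit that meets cytochrome c (ENSMUSG00000063882.13, chromosome 4, 115923314 to 115932296, minus strand), was nearest to 0. *Uqcrh* had 323, 758 and 797 CPM in WT and 537, 594, 541 and 667 CPM in *Jag2sm* libraries, and a log2 fold change of -0.12 ± 0.30 (SE), adjusted p = 0.887, and WT replicate 1 was the lowest library. *Uqcrq*, one of the 10 members with most counts, had 438, 982 and 985 CPM in WT and 614, 637, 732 and 741 CPM in *Jag2sm* libraries. The same library was lowest, and the log2 fold change was -0.25 ± 0.29 (SE), adjusted p = 0.697.

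Cytochrome c itself, the mobile carrier between complexes III and IV, was thinly covered. *Cycs* (ENSMUSG00000063694.6, chromosome 6, 50539541 to 50543557, minus strand) had 11.5, 11.0 and 18 CPM in WT and 14.1, 7.60, 14.3 and 13.9 CPM in *Jag2sm* libraries, from 105 counts. The log2 fold change of *Cycs* was -0.17 ± 0.37 (SE), adjusted p = 0.860, the genotypes overlapped, and its sign turned when WT replicate 3 or *Jag2sm* replicate 2 was left out (0.14 and 0.029).

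Complex IV, cytochrome c oxidase, held both the second most negative member and some with almost no difference. Of the 7 tested members, 5 had a negative log2 fold change, with a median of -0.27, and 0 were called. Without overlap were 0, while 12.2% of all genes tested were separated with *Jag2sm* lower and 10.3% with it higher. *Cox7b*, a small subunit encoded on the X chromosome (ENSMUSG00000031231.5, chromosome X, 105055638 to 105066240, plus strand), had 1211, 2102 and 2122 CPM in WT and 1042, 739, 1584 and 839 CPM in *Jag2sm* libraries. WT replicate 1 lay within the *Jag2sm* range and *Jag2sm* replicate 3 was the highest of its genotype. The log2 fold change of *Cox7b* was -0.79 ± 0.33 (SE), adjusted p = 0.209. *Ndufa4* (ENSMUSG00000029632.8, chromosome 6, 11897630 to 11907496, minus strand), a subunit of complex IV despite its name, had 732, 1187 and 1669 CPM in WT and 597, 1014, 483 and 1201 CPM in *Jag2sm* libraries. It varied within both genotypes, and its log2 fold change was -0.55 ± 0.38 (SE), adjusted p = 0.467.

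*Cox6b1*, which faces the intermembrane space (ENSMUSG00000036751.8, chromosome 7, 30316282 to 30325616, minus strand), had 634, 1078 and 1114 CPM in WT and 762, 768, 759 and 858 CPM in *Jag2sm* libraries. Its log2 fold change was -0.27 ± 0.25 (SE), adjusted p = 0.615. *Cox6c* (ENSMUSG00000014313.16, chromosome 15, 35923634 to 35938392, minus strand) had 680.2, 992 and 1106 CPM in WT and 843, 987, 758 and 1200.0 CPM in *Jag2sm* libraries, and a log2 fold change of 0.025 ± 0.27 (SE), adjusted p = 0.984. *Cox7c* (ENSMUSG00000017778.15, chromosome 13, 86189246 to 86195023, minus strand) had 28.8, 206 and 229.5 CPM in WT and 165, 193, 202 and 208 CPM in *Jag2sm* libraries, and a log2 fold change of 0.19 ± 0.41 (SE), adjusted p = 0.854. WT replicate 1 held a few reads of *Cox7c*, and without it the value was -0.19. *Ndufa4l2*, a relative of *Ndufa4*, had 1 count in all and was not tested. Among oxidase subunits outside the members, the muscle isoforms *Cox8b*, *Cox6a2* and *Cox7a1* were called lower, with log2 fold changes of -3.96 ± 0.33 (SE), -3.71 ± 0.37 (SE) and -1.89 ± 0.39 (SE) and adjusted p = 0.000713, 0.00152 and 0.0177.

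The F1 head of ATP synthase, where ATP is made, had values close to each other. All 5 subunits had a negative log2 fold change, from -0.49 to -0.27, with a median of -0.42. The SD between the 5 genes was 0.090, against 0.249 over all members and 0.872 over all genes tested. It was 0.142 in the stalk and membrane part, 0.148 in complex III and 0.152 in the complex I core. The F1 genes had 2963 to 15993 counts each, and differences in counts between these sets were not allowed for. Without WT replicate 1 they ran from -0.59 to -0.38. None was called, and in 4 of the 5 every *Jag2sm* library was below every WT library. Added together, the F1 subunits amounted to 5568, 5434 and 5633 CPM in WT and 3797, 4020.2, 3921 and 4701 CPM in *Jag2sm* libraries. These sums did not overlap, and the mean *Jag2sm* sum differed from that of WT by -25.9%.

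*Atp5f1b*, the catalytic beta subunit and the member with most counts (ENSMUSG00000025393.13, chromosome 10, 127919132 to 127926261, plus strand), had 2634, 2255 and 2396 CPM in WT and 1533, 1736, 1681 and 2050.2 CPM in *Jag2sm* libraries. Its log2 fold change was -0.47 ± 0.24 (SE), adjusted p = 0.317. *Atp5f1a*, the alpha subunit (ENSMUSG00000025428.16), had 1124, 1012 and 1036 CPM in WT and 738, 788, 752 and 889 CPM in *Jag2sm* libraries, and a log2 fold change of -0.42 ± 0.22 (SE), adjusted p = 0.322. *Atp5f1d*, the delta subunit of the central stalk (ENSMUSG00000003072.16, chromosome 10, 79974466 to 79981652, plus strand), had 963, 1005 and 1022 CPM in WT and 721, 676, 664 and 787 CPM in *Jag2sm* libraries. For *Atp5f1d* the log2 fold change was -0.49 ± 0.21 (SE), adjusted p = 0.233, and DESeq2 called it lower (-0.45, adjusted p = 0.0444). Over all settings tried its adjusted p ran from 0.0444 to 0.742. *Atp5f1e*, the epsilon subunit (ENSMUSG00000016252.8, chromosome 2, 174302861 to 174305906, minus strand), had 161, 477 and 461 CPM in WT and 276, 291, 315 and 371 CPM in *Jag2sm* libraries, and a log2 fold change of -0.27 ± 0.32 (SE), adjusted p = 0.708. Here WT replicate 1 lay below all *Jag2sm* libraries. *Atp5f1c*, the gamma subunit that turns in the centre of the head (ENSMUSG00000025781.15, chromosome 2, 10060827 to 10085350, minus strand), had 686, 686 and 719 CPM in WT and 529, 529, 509 and 604 CPM in *Jag2sm* libraries, without overlap. *Atp5f1c* had a log2 fold change of -0.36 ± 0.21 (SE), adjusted p = 0.366.

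The stalk and the membrane part hold the proton channel and keep the head from turning. Of 13 members here 11 were tested, each with a log2 fold change below 0, from -0.49 to -0.061, with a median of -0.33. None was called. In 3 (27.3%), *Atp5pd*, *Atp5pb* and *Atp5po*, every *Jag2sm* library was below every WT library, against 12.2% of all genes tested. *Atp5pd*, a peripheral stalk subunit (ENSMUSG00000034566.11, chromosome 11, 115305263 to 115311342, minus strand), had 46.1, 55.6 and 56.0 CPM in WT and 42.4, 35.9, 36.0 and 40.8 CPM in *Jag2sm* libraries, and a log2 fold change of -0.49 ± 0.20 (SE), adjusted p = 0.210. *Atp5mc1*, *Atp5mc2* and *Atp5mc3* encode the same mature subunit of the proton-driven ring with different targeting sequences. *Atp5mc3* (ENSMUSG00000018770.10, chromosome 2, 73738779 to 73741933, minus strand) had 1078, 1878 and 2202 CPM in WT and 1264, 1435, 1422 and 1629 CPM in *Jag2sm* libraries, and a log2 fold change of -0.26 ± 0.29 (SE), adjusted p = 0.670. *Atp5mc2* (ENSMUSG00000062683.12, chromosome 15, 102571295 to 102580787, minus strand) had 11.5, 9.05 and 9.48 CPM in WT and 5.66, 13.1, 6.41 and 10.6 CPM in *Jag2sm* libraries, from 75 counts, and a log2 fold change of -0.061 ± 0.42 (SE), adjusted p = 0.972. *Atp5pf*, coupling factor 6 (ENSMUSG00000022890.14, chromosome 16, 84614160 to 84633154, minus strand), had 438, 839 and 849 CPM in WT and 624, 617, 566 and 753 CPM in *Jag2sm* libraries, and a log2 fold change of -0.16 ± 0.27 (SE), adjusted p = 0.805. *Atp5mk* (45 counts) was below the filter. A second identifier named *Atp5po* (ENSMUSG00000116933.2), whose exons overlap those of *Donson*, had 0 counts.

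*Atp5if1*, whose product blocks ATP hydrolysis by the enzyme when the proton gradient fails, had the most positive value of the 80 members (ENSMUSG00000054428.13, chromosome 4, 132257215 to 132262823, minus strand). *Atp5if1* had 28.8, 14.2 and 17.1 CPM in WT and 35.3, 20.0, 29.6 and 20.4 CPM in *Jag2sm* libraries, from 184 counts. The genotypes overlapped, and the log2 fold change was 0.59 ± 0.33 (SE), adjusted p = 0.364. It was the only one of the 17 tested ATP synthase genes with a positive value, and the difference from the other 16 was not tested.

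Overlap between the genotypes was more frequent among members with short transcripts, in which WT replicate 1 was low. The median annotated length of the tested members was 874.5 bases, against 2788.5 over all genes tested. In WT replicate 1, genes of under 600 bases had a median log2 CPM that differed by -1.01 from the mean of WT replicates 2 and 3, and genes of 2000 to 4000 bases by -0.022. Among the members, those of up to 851 bases differed there by -0.92 and the longer ones by -0.26. WT replicate 1 was below both other WT libraries in 33 of 39 shorter and 22 of 41 longer members. Every *Jag2sm* library was below every WT library in 3 of the shorter (7.69%) and 16 of the longer members (39.02%). Of all genes tested, 12.2% showed this. The core subunits of complex I (median length 1572 bases) and the F1 subunits (1416) are longer than the accessory subunits (762) and complex IV (547). Other groups did not follow this order. Every *Jag2sm* library was below every WT library in 25.0% of complex II (2916 bases) and 22.2% of complex III (1335). The share was 25.0% in the complex I assembly factors (1343.5) and 27.3% in the ATP synthase stalk and membrane part (794). The part of length in the overlap was not tested.

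With the trend on length removed from each library, 72 of the 80 members had a negative log2 fold change, the median was -0.43 and 3 were called lower (*Ndufa3*, *Ndufb7* and *Ndufaf3*), while 5.01% of all genes were called lower in that fit. Without WT replicate 1, 75 of 81 were negative, the median was -0.41 and 4 were called lower, the same 3 and *Ndufa5*. Here 4.69% of all genes were called lower. With both changes together 5 members were called lower, *Ndufb11* in addition, and 4.57% of all genes. Leaving out any other single library gave 0 called members and medians of -0.32 to -0.14. The depth of WT replicate 1 was also the smallest, and 45.1% of the reads it aligned fell on no gene, against 20.8% to 25.7% in the others. The part of these properties in its values was not tested. Among the *Jag2sm* libraries, replicates 1, 2 and 4 had 46.0% to 50.8% unaligned reads, where the other 4 libraries of the study had 2.44% to 3.24%. With these 3 left out, which leaves 1 *Jag2sm* library that is assumed to vary like WT, 64 of 83 members were negative, the median was -0.26 and 0 were called.

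**Figure D4:**
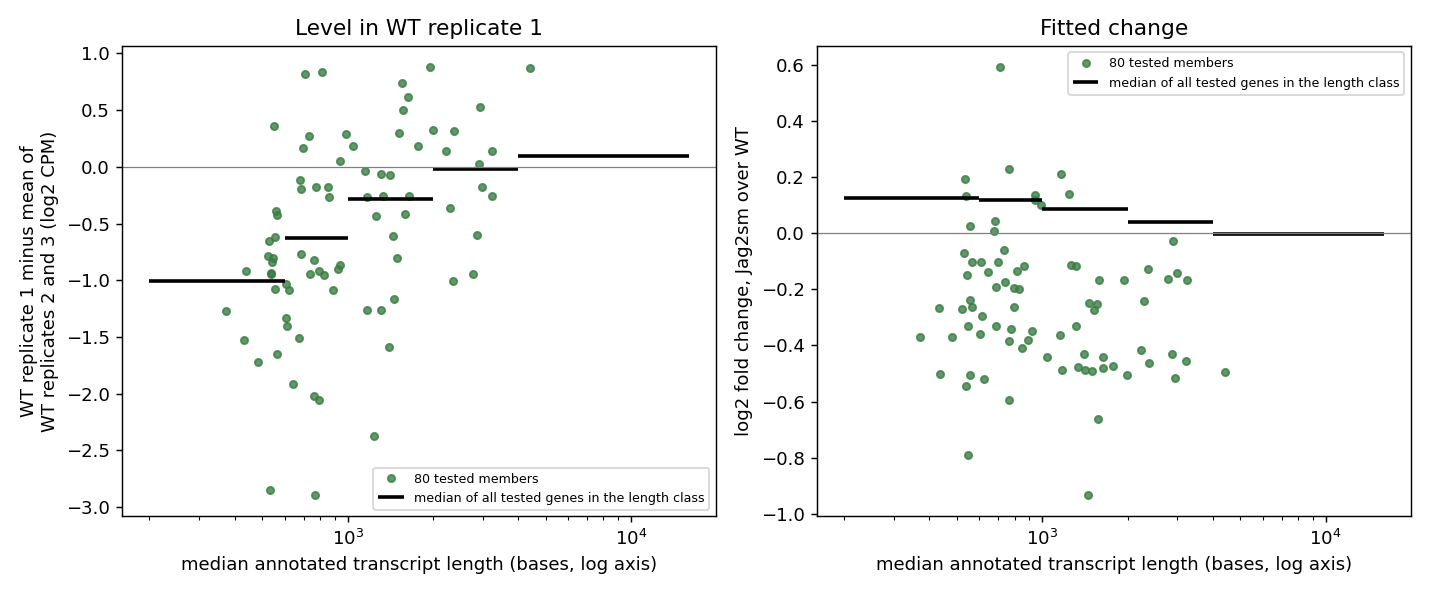
Left, log2 CPM in WT replicate 1 minus the mean of WT replicates 2 and 3 (y axis) for the 80 tested members by median annotated transcript length (x axis, log scale). Right, fitted log2 fold change of *Jag2sm* over WT by length. Green points are members and black lines are medians of all genes tested in 5 length classes. In the left plot the lines rise from -1.01 to 0.10 with length, and in the right plot most points lie below the lines.

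Within batches the picture split in the same way. In batch 1, which holds WT replicate 1, 35 of 80 members were lower in the *Jag2sm* library (43.8%) and the median log2 difference was 0.17. In batches 2 and 3, 69 and 74 were lower, with a median of -0.44 in both. For all genes tested the share lower in *Jag2sm* was 46.2%, 48.8% and 49.9% in the 3 batches. In 27 of the 80 members (33.8%) and 21.1% of all genes tested the *Jag2sm* library was lower in all 3 batches. With the batch number as a block in the fit, 0 members were called, the median was -0.30 and 2 members had an unadjusted p under 0.05, in place of 12.

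Several members share their sequence with annotated copies elsewhere in the genome, so part of their reads may have been counted there or not at all. A copy was taken as a match of at least 95% identity over at least 80% of the coding sequence, and 24 of the 87 members had 1 or more. Copy counts were summed over copies in the count files that are not protein-coding genes, and over *Cox5b-ps*. Left out were, among others, *Gm10053* (69 counts), which matches *Cycs* at 100.0% identity, and *Pitpna* (1200 counts), a transcript of which matches *Cox7c* at 100.0%. On this basis the copies of 22 members held counts, and those of 8 held more than the member itself. The clearest case was *Cox7c*, with 1626 counts on the gene and 6102 on its copies. The coding sequence of *Cox7c* (GRCm39, chromosome 13, minus strand, spliced from exons between 86189246 and 86195023, read from the reference genome) is shown with those of 2 processed copies, *Gm12338* (chromosome 11, 75490589 to 75490780, minus strand) and *Cox7c-ps1* (chromosome 17, 26120836 to 26121027, plus strand). Capitals mark bases that differ from *Cox7c*, with positions counted from 1 at the A of the start codon.

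Cox7c: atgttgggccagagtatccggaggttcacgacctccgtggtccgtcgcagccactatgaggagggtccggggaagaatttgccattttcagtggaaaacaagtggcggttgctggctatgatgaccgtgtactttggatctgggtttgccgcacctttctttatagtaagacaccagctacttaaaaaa

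Gm12338: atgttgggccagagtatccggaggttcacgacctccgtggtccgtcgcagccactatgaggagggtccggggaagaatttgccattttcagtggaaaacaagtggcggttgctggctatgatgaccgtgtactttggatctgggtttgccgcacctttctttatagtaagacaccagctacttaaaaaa

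Cox7c-ps1: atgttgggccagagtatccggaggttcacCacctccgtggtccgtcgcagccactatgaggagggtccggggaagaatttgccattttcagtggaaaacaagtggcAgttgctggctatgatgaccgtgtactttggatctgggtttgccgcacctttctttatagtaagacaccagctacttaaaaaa

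*Gm12338* has no difference from *Cox7c* over these 189 bases, and *Cox7c-ps1* has 2, G30C and G107A. A read that covers only this part therefore cannot be assigned between *Cox7c* and *Gm12338*. With the copies added, *Cox7c* had 472, 1049.9 and 1243 CPM in WT and 836, 831, 856 and 961 CPM in *Jag2sm* libraries, and its log2 fold change moved from 0.19 to -0.10 ± 0.31 (SE), adjusted p = 0.917. *Ndufab1*, the acyl carrier protein, had 100 counts on the gene and 2425 on copies, and its log2 fold change went from 0.14 to -0.077 ± 0.24 (SE), adjusted p = 0.914. For *Cox5b*, a matrix-facing subunit of complex IV with 426 against 3552 counts, it went from -0.33 to -0.46 ± 0.23 (SE), adjusted p = 0.292. *Atp5mc2* turned from -0.061 to 0.25 ± 0.37 (SE), adjusted p = 0.761. *Ndufs5* and *Ndufb4*, not tested on their own, reached the test with their copies at -0.19 ± 0.25 (SE), adjusted p = 0.748 and -0.27 ± 0.24 (SE), adjusted p = 0.580.

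With the summed copies added to their members, 83 members were tested, 73 had a negative log2 fold change, 0 were called and the median was -0.26. The 20 tested members with a copy had a median of -0.27 and the 60 without one -0.26. Exons of 54 members overlap those of another gene, and since the strand setting of the counting is not given in the sources used here, reads of both may be mixed. Of the members without overlap between genotypes, this holds among others for *Ndufs1* (with *Eef1b2*), *Ndufs3* (*Kbtbd4*), *Sdha* (*Ccdc127*), *Atp5f1a* (*Haus1*) and *Atp5f1d* (*Cbarp*). The partner genes named lie on the opposite strand. Exons of *Atp5f1b* (with *Gm55458* and *Mir677*) and *Atp5po* (with its second identifier) overlap others on the same strand. Among the 23 tested members with neither a copy nor an overlap, 19 were negative and the median was -0.27.

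**Figure D5:**
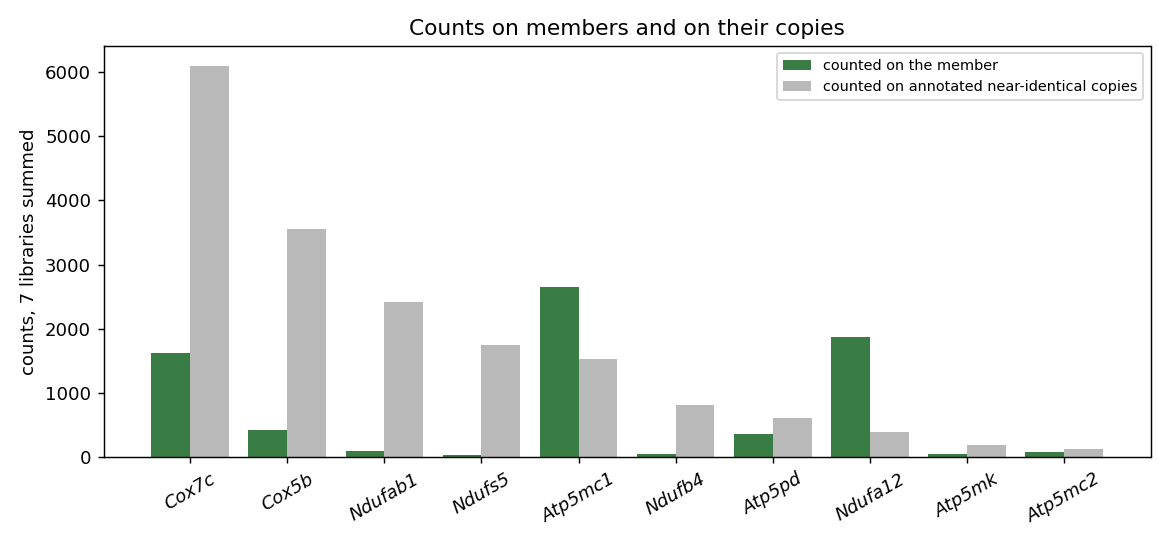
Counts summed over the 7 libraries (y axis) on 10 members (x axis) and on their annotated near-identical copies. Green bars are the member and grey bars its copies. The grey bar is higher in 8 of the 10, from *Cox7c* (1626 against 6102) to *Atp5mc2* (75 against 123), and lower in *Atp5mc1* and *Ndufa12*.

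Promoters of nuclear respiratory genes are known for binding sites of NRF1, of the ETS factor GABPA, of YY1 and of estrogen-related receptors. RefSeq promoters (250 bases before to 50 after the start site, GRCm38.p6) were matched for 69 member symbols with 74 promoters. The NRF1 letters GCGCANGCG, searched on both strands as were all the motifs, were found in 31.1% of member promoters, 6.25% of all 32851 promoters and 14.2% of the 9399 promoters of tested genes. The ETS letters CCGGAAG were found in 21.6%, 8.86% and 18.4% of the same promoters. For YY1 (AANATGGCG) the shares were 14.9%, 2.38% and 5.52%. For the estrogen-related receptors (TCAAGGTCA) they were 2.70%, 0.423% and 0.192%, from 2 member promoters. A promoter can hold several motifs and counts for each, and a match describes the letters only.

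The stretches shown here are those that lie outside all annotated exons for at least 100 bases and hold a match, which was so for 4 members. They were placed on GRCm39 by exact match and are written 5′ to 3′ on the strand of the gene, with the motif in capitals. All 4 lie on the minus strand. The *Atp5f1e* stretch (chr2:174305907-174306144) holds the ETS letters in reverse, 102 bases before the start site, and that of *Uqcr11* (chr10:80242677-80242905) holds them 66 bases before it. The *Ndufb4* stretch (chr16:37474816-37474980) holds the NRF1 letters 191 bases before the start site, and that of *Ndufs5* (chr4:123612003-123612229) 98 bases before it.

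Atp5f1e: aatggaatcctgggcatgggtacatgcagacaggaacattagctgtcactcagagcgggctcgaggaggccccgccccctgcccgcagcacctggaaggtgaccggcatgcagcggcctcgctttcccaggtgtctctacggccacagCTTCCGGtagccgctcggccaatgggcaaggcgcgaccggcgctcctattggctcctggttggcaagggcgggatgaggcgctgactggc

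Uqcr11: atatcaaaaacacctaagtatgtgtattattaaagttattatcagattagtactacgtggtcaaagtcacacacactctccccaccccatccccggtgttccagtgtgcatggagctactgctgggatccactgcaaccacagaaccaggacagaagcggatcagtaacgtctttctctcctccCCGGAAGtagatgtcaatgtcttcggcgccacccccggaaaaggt

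Ndufb4: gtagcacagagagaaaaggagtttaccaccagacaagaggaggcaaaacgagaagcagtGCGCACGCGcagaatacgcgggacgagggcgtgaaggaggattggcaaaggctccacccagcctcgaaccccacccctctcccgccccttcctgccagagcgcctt

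Ndufs5: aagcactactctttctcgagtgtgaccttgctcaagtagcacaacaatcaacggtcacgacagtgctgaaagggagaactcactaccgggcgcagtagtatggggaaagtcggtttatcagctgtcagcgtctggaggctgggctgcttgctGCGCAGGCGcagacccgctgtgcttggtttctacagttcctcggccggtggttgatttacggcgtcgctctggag

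*Uqcr11*, a small subunit of complex III, had a log2 fold change of -0.36 ± 0.28 (SE), adjusted p = 0.529. Those of *Atp5f1e*, and of *Ndufb4* and *Ndufs5* with their copies, are given above.

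Other gene lists of the same pathway were described in the same way. Of 13 mitochondrially encoded genes 8 passed the filter, each with a log2 fold change below 0 and with a median of -0.60, and 0 were called. In *mt-Co2* and *mt-Nd6* only WT replicate 1 lay above the *Jag2sm* libraries, and WT replicates 2 and 3 did not. Among 39 tested assembly factors outside complex I names, 27 were negative, the median was -0.17 and 1 fell, *Cox19*, a copper-handling factor of complex IV (-0.83 ± 0.20 (SE), adjusted p = 0.0368). Of the 18 genes of the citric acid cycle and pyruvate dehydrogenase, 15 were negative, with a median of -0.37. In this list *Pdha1* and *Pdhb*, which encode both parts of the first enzyme of the pyruvate dehydrogenase complex, fell by 1.07 ± 0.25 and 1.13 ± 0.29 on the log2 scale (SE, edgeR adjusted p = 0.0303 and 0.0484).

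Of 12 tested genes of cristae organisation, 10 were negative, the median was -0.14 and 1 fell, *Apool* (-0.93 ± 0.24 (SE), adjusted p = 0.0464). Of 10 tested carriers and pores 8 were negative (median -0.33), and of 7 other electron donors 5 (median -0.30), with 0 called in both. Among 15 tested regulators of mitochondrial genes, 5 were negative, the median was 0.033 and 0 were called. For 74 tested proteins of the mitochondrial ribosome, 32 were negative, the median was 0.030 and 0 were called. The 9 other tested cytochrome oxidase subunits had a median of 0.0070, with the 3 muscle isoforms called lower. No gene of these lists was called higher.

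Markers of differentiated muscle moved with the genotype to a larger extent. Of 17 such genes 15 were tested, and all 15 fell, with a median log2 fold change of -3.24. Their summed CPM was 57816, 36769.9 and 41874 in WT and 7356, 4371, 1364 and 8746 in *Jag2sm* libraries. The order of the libraries in this sum was not that of the summed members. In this comparison WT replicate 1 is the library with the smallest depth and with low values for short transcripts. WT replicate 1 had the highest muscle marker sum and the lowest WT member sum, and *Jag2sm* replicate 3 had the lowest marker sum and the second highest *Jag2sm* member sum, while *Jag2sm* replicate 4 was the highest of its genotype in both. Of 8 myoblast markers, all of which were tested, 5 had a negative log2 fold change, the median was -0.26 and 1 fell, *Des*, the muscle intermediate filament (-1.63 ± 0.36 (SE), adjusted p = 0.0244). The part of these cell states in the values of the members was not tested.

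Markers of most other cell types were at or near 0. None of 7 endothelial, 5 fibro-adipogenic, 7 immune and 4 glial markers reached the test, with at most 18, 49, 16 and 7 counts per gene over the 7 libraries, and *Kdr*, *Dpt*, *Ptprc* and *Lyz2* had 0. Among 4 mural markers, *Rgs5* was high in *Jag2sm* replicate 1 (645 CPM), and *Abcc9* was called lower. The tenocyte marker *Scx* was called lower (-1.34 ± 0.29 (SE), adjusted p = 0.0223). *Jag2* itself had 80.7, 113.8 and 115.7 CPM in WT and 42.4, 78.8, 71.9 and 77.4 CPM in *Jag2sm* libraries. Every *Jag2sm* value was below every WT value, as in 12.2% of all genes tested, though a missense allele need not lower the transcript.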

How the data were processed

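Gene counts were deposited by the authors for 7 libraries. Barcoded direct cDNA was sequenced by nanopore on PromethION flow cells and basecalled with dorado. Per the processing notes, reads were aligned to GRCm39 with minimap2 2.17 and counted with HTSeq, and DESeq2 was run in R 4.3.0. The annotation release and strand setting are not given in the sources used here. A deposited table of the authors' own DESeq2 comparison (fold changes and p-values) was not used.

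Rows that name no gene were left out of library sizes. Of the aligned reads, 20.8% to 45.1% fell on no gene and 8.05% to 9.74% were ambiguous. Counts were tested in R 4.3.3 with edgeR 4.0.16 (TMM, filterByExpr with a minimum count of 10 and total of 15, quasi-likelihood test, no covariate), with Benjamini-Hochberg adjustment over 9489 genes and a threshold of 0.05. CPM use TMM library sizes and log2 CPM a prior count of 2. Alternatives used DESeq2 1.42.0, limma 3.58.1 (voom), other scalings and filters, counts thinned to 187834, a lowess trend on transcript length (span 0.5), a replicate block and the omission of each library. Same-numbered WT and *Jag2sm* libraries, which share a batch number in the labels, had deviations that correlated at 0.0740, 0.0144 and 0.0539. Only the labels give this pairing.

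Genes were placed with GENCODE M39, in which 56017 of 56748 identifiers were found, 31625 with the same version. Lengths are medians of annotated transcripts. Copies were sought with minimap2 2.31-r1302. Exon overlaps used bedtools 2.31.1. Promoters came from RefSeq (GRCm38.p6), all 74 placed on GRCm39 by exact match of the bases before the start site.

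The genes named were members called, the most positive and negative of each role, the 10 with most counts, complex II, *Cycs*, those not tested, and called genes of the other lists (at most 4 a list). As exceptions, the other complex I core and F1 subunits, *Ndufa10*, *Ndufa3*, *Ndufb7*, *Ndufb11*, *Ndufaf1*, *Uqcrfs1*, *Uqcr11*, *Atp5pb*, *Atp5po* and the copy cases, and *Rgs5*, *mt-Co2*, *mt-Nd6* and the regulators in the closing section, were named after their values were seen. The values of 1 member are not reported here. The members and lists were chosen with earlier results of these data known.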

Additional observations from a re-analysis of the deposited data

Results flagged for a closer look

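In the 4 *Jag2sm* libraries, single values lay apart from the other 3 of their group in 4 of 37 groups examined by Dixon's test. Chance gives about 1 in 20 for independent groups, but these groups share the same 4 libraries, so the rates cannot be compared. *Cycs* had 7.60 CPM in *Jag2sm* replicate 2, below the other *Jag2sm* libraries at 13.9 to 14.3 CPM. *Cox6b1* had 858 CPM in *Jag2sm* replicate 4, above the others at 759 to 768 CPM. In the same library the median deviation from the gene means was 0.070 for complex II, against -0.12 to -0.11 in the others, and 0.117 for complex III, against -0.21 to -0.16 (log2 CPM). *Jag2sm* replicate 4 is the library whose batch holds no WT sample.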

How the results depend on the processing

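The 80 tested members gave 0 calls higher in *Jag2sm* under all settings tried, and 0 to 5 calls lower. Their median log2 fold change stayed negative throughout, between -0.48 with the replicate block and the length trend removed and -0.10 with library size alone. For the 28 genes named by the rule, 603 values were recomputed under alternatives, of which 555 kept their direction and side of the threshold, 7 passed it (*Ndufaf3*, *Ndufa5* and *Atp5f1d*) and 41 in 10 genes changed sign, all of genes whose reported values lie between -0.17 and 0.23. With library size alone, medians were -0.28 for complex I core, 0.034 for complex II, -0.26 for ATP synthase F1, and the sign turned in *Sdhb* (0.14), *Uqcrh* (0.043), *Atp5mc2* (0.094), *Sdhc* (0.019), *Sdhd* (0.048). With DESeq2, 1 member was called lower, and the sign turned in *Sdhb* (0.010). With limma-voom, 1 member was called lower, and the sign turned in *Uqcrh* (0.087). With no filter on low counts, the sign turned in *Sdhb* (0.018). With at least 10 counts required in every library, medians were -0.29 for complex I core, 0.023 for complex II, -0.25 for ATP synthase F1, and the sign turned in *Sdhb* (0.13), *Uqcrh* (0.016), *Sdhc* (0.012), *Sdhd* (0.034). With the replicate block, the sign turned in *Sdhb* (0.0040), *Cox6c* (-0.086). With the length trend removed, 3 members were called lower, and medians were -0.59 for complex I core, -0.54 for ATP synthase F1, and the sign turned in *Cox6c* (-0.22). With the replicate block and the length trend removed, medians were -0.48 for all members, -0.61 for complex I core, -0.27 for complex II, -0.58 for complex III, -0.57 for ATP synthase F1, and the sign turned in *Cox6c* (-0.34). With counts thinned to the smallest library, the median was -0.53 for ATP synthase F1, and the sign turned in *Cox6c* (-0.015). With the length trend removed and WT replicate 1 left out, 5 members were called lower, and the median was -0.24 for complex II, and the sign turned in *Ndufa12* (-0.069), *Ndufaf2* (-0.011), *Cox7c* (-0.16), *Cox6c* (-0.13). With counts of near-identical copies added, the sign turned in *Ndufa12* (-0.13), *Cox7c* (-0.10), *Atp5mc2* (0.25). With the 3 libraries with most unaligned reads left out, the sign turned in *Sdhb* (0.12), *Cycs* (0.064), *Cox6c* (-0.26). Leaving out each library in turn gave 0 to 4 members called lower, -0.22 to -0.061 for complex II, -0.051 to 0.39 for *Ndufa12*, -0.018 to 0.51 for *Ndufaf2*, -0.19 to 0.50 for *Cox7c*, -0.16 to 0.16 for *Cox6c*, -0.42 to 0.075 for *Uqcrh*, -0.11 to 0.075 for *Sdhb*, -0.38 to 0.14 for *Cycs*, -0.31 to 0.14 for *Atp5mc2*. The cause was not tested. The replicate block called 0 members (median -0.30), so it changed no call of a member, and it left 2 with an unadjusted p under 0.05 in place of 12. With at least 10 counts in every library, or thinned counts, *Cycs* and *Atp5if1* gave no value. The last combination with length, the copies and the omission of 3 libraries were chosen after seeing the data. Depth limits all values of WT replicate 1, where 3 counts are 16.0 CPM by raw library total and 17.3 normalized CPM.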

Other observations

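Among 15 tested regulators of mitochondrial gene expression, 2 (13.3%) had every *Jag2sm* library above every WT library. This share is near the 10.3% of all genes tested, and neither of the 2 passed the test. *Nrf1*, a transcription factor of nuclear respiratory genes, had 23.1, 18.7 and 26.6 CPM in WT and 33.9, 33.2, 39.9 and 39.1 CPM in *Jag2sm* libraries, and a log2 fold change of 0.70 ± 0.25 (SE), adjusted p = 0.134 (edgeR). *Polg2*, the accessory subunit of the mitochondrial DNA polymerase, had 0, 3.88 and 3.79 CPM in WT and 4.24, 9.67, 8.38 and 13 CPM in *Jag2sm* libraries, and a log2 fold change of 1.35 ± 0.54 (SE), adjusted p = 0.190. *Polg2* had 60 counts in all, and its 0 in WT replicate 1 allows up to 16.0 CPM by raw library total, above its *Jag2sm* values. *Lrpprc*, which stabilises mitochondrial mRNA, was separated the other way, with 69.2, 69.2 and 70.2 CPM in WT and 53.7, 54.6, 62.6 and 60.3 CPM in *Jag2sm* libraries, and a log2 fold change of -0.26 ± 0.18 (SE), adjusted p = 0.474. All 3 were chosen after their values were seen.

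For the mitochondrial ribosome, summed CPM was 3516, 5655, 5811 in WT and 5553, 5010.5, 5312, 5468 in *Jag2sm* libraries, in replicate order. WT replicate 1 was the lowest, and WT replicates 2 and 3 lay above all 4 *Jag2sm* libraries.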
